A study of Mus musculus with 6 samples.

Results

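The miR-30 family is a set of miRNAs that begin with the same bases, and its members here are mmu-miR-30a-5p, mmu-miR-30b-5p, mmu-miR-30c-5p, mmu-miR-30d-5p, mmu-miR-30e-5p and the neural relative mmu-miR-384-5p, written without the species prefix where brevity asks. They were taken by name from the counts of RNA bound to the Argonaute protein AGO2, and make up 6 of the 1978 mature miRNAs listed in each library. The samples came from cortex of mice at postnatal day 14 (P14) with the genotype VGLUT2-Cre;Spy3-AGO2, and the labels name pyramidal neurons as the cell type. In these mice AGO2 carries a conditional Spy3 tag that couples to SpyCatcher3 on a resin, and the tag is switched on where the VGLUT2-Cre driver has been active. The cortex was not sorted by a step that the labels record, so the choice of cells rests on that driver, and every group shares this genotype. Of the 6 libraries of the series, 2 are AGO2-bound miRNA libraries, 2 are AGO2-bound target libraries and 2 are input libraries of whole lysate. The 2 miRNA libraries gave all counts used here, and for targets a single list of 2197 peaks stood for the whole series. Whether the 2 libraries stem from different animals is not in the labels. SDs then measure only the spread between these libraries, which may be technical. The p-values set the difference between these libraries against read counting noise alone.

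A miRNA guides AGO2 to messenger RNAs by pairing its seed, bases 2 to 8 from its 5′ end, with a site that most often lies in the 3′ untranslated region, and the bound message is repressed. Members of a seed family can therefore share targets while being made from different genes. Each hairpin precursor yields a 5p and a 3p arm, of which AGO2 usually keeps mainly 1. miR-30 miRNAs are found in many tissues and are known for restraining autophagy and developmental regulators, and miR-384-5p is known mostly from brain, where it has been tied to synaptic plasticity.

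The mature sequences show what the members share, with the seed in capitals and the letters taken from RefSeq tables built on GRCm38.p6 (the mm10 assembly). Of the 6 members, 4 matched the sequence table by name.
miR-30c-5p: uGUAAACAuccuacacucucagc
miR-30e-5p: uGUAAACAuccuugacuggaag
miR-30a-5p: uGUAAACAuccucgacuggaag
miR-384-5p: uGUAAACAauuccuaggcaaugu
These 4 carried the same seed, GUAAACA, and no other of the 1679 mature entries in the table had it at bases 2 to 8. Of the 1978 listed miRNAs, 1679 had a sequence, so miR-30b-5p, miR-30d-5p and the others without one were not searched. miR-30e-5p and miR-30a-5p were identical at 21 of 22 bases and differed by U13C, with the base of miR-30e-5p first and positions counted from 1 at the 5′ end. miR-30c-5p shared its first 12 bases with both and was identical to each at 17 of 22. miR-384-5p shared only its first 8 bases with the other 3, and beyond the seed region it matched them little, with 12 of 22 bases identical to miR-30a-5p. The counts of miR-30e-5p and miR-30a-5p therefore hang on 1 base of the read, and the sources used here do not state how the counting treated mismatches.

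The members come from several loci. Mir30a (chromosome 1, 23272269 to 23272339) and Mir30c-2 (chromosome 1, 23291701 to 23291784) lie 19.4 kb apart, and neither lies within the span of another gene in the table other than small RNAs. Mir30c-1 (chromosome 4, 120769534 to 120769622) and Mir30e (chromosome 4, 120772606 to 120772697) lie 2.98 kb apart inside Nfyc, the gene of a subunit of the NF-Y transcription factor. Mir30b (chromosome 15, 68337415 to 68337510) and Mir30d (chromosome 15, 68341208 to 68341289) lie 3.70 kb apart, and Mir384 stands on the X chromosome (105344282 to 105344369). Because miR-30c-5p is the product of both Mir30c-1 and Mir30c-2 with 1 mature sequence, its counts do not separate the loci.

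The miRNA libraries held 66854 counts in replicate 1 and 75658 in replicate 2. Where a miRNA had no count, shares of up to 0.00449% (replicate 1) or 0.00397% (replicate 2) remained possible. Intervals and such limits cover counting error only and treat reads as independent. Duplicate reads were kept in these counts, so the intervals and limits may be too narrow. As a look at cell types, miR-124-3p, miR-128-3p and miR-9-5p were listed for neurons in general. Together they held 25.2% of the counts in replicate 1 and 25.3% in replicate 2. They do not check the label of pyramidal neurons, and whether other cells such as astrocytes added to their counts was not tested. The 13 listed miRNAs of oligodendrocytes, vessels, microglia and blood, with none of astrocytes, together held 0.218% and 0.217%. Of these 13, 10 were counted in both libraries. Of the 4 listed for microglia and blood, miR-223-3p was at 0 in both libraries. miR-142a-3p had 3 and 5 counts, miR-150-5p 6 and 5, and miR-142a-5p 1 and 0. The highest of the 13, the endothelial miR-126a-3p, had a mean share of 0.130%, close to the 0.115% of miR-384-5p. miR-30 miRNAs are made in such cells too. How much other cells added to the counts of the members was not tested.

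Together the 6 members held 2446 counts in replicate 1, which is 3.66% of the library (exact 95% interval 3.52 to 3.80), and 2947 counts in replicate 2, which is 3.90% (exact 95% interval 3.76 to 4.04). Their pool was thus larger than the share of any single miRNA outside the top 4, although no member ranked higher than position 19 on its own.

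mmu-miR-30b-5p, from the chromosome 15 locus, was the most abundant member, with 692 counts in replicate 1 and 805 in replicate 2. These are 1.04% and 1.06% of the libraries, a mean of 1.05% ± 0.0204 (SD, n = 2). mmu-miR-30c-5p followed with 595 and 738 counts, or 0.933% ± 0.0604 (SD, n = 2), at position 27. mmu-miR-30d-5p, the neighbour of miR-30b-5p on chromosome 15, had 532 and 674 counts, or 0.843% ± 0.0672 (SD, n = 2), at position 31. These 3 members formed an upper tier that held 74.8% ± 0.610 of the family's counts (SD, n = 2).

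The other members stood in clear steps below that tier. mmu-miR-30e-5p, the partner of miR-30c in Nfyc, had 375 and 430 counts, or 0.565% ± 0.00525 (SD, n = 2), at position 40. mmu-miR-30a-5p, the member best known for targeting the autophagy gene Becn1, had 179 and 209 counts, or 0.272% ± 0.00601 (SD, n = 2), at position 67. mmu-miR-384-5p was lowest with 73 and 91 counts, or 0.115% ± 0.00784 (SD, n = 2), at position 117. The mean share of miR-30b-5p was 9.15 times that of miR-384-5p.

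**Figure D1:**
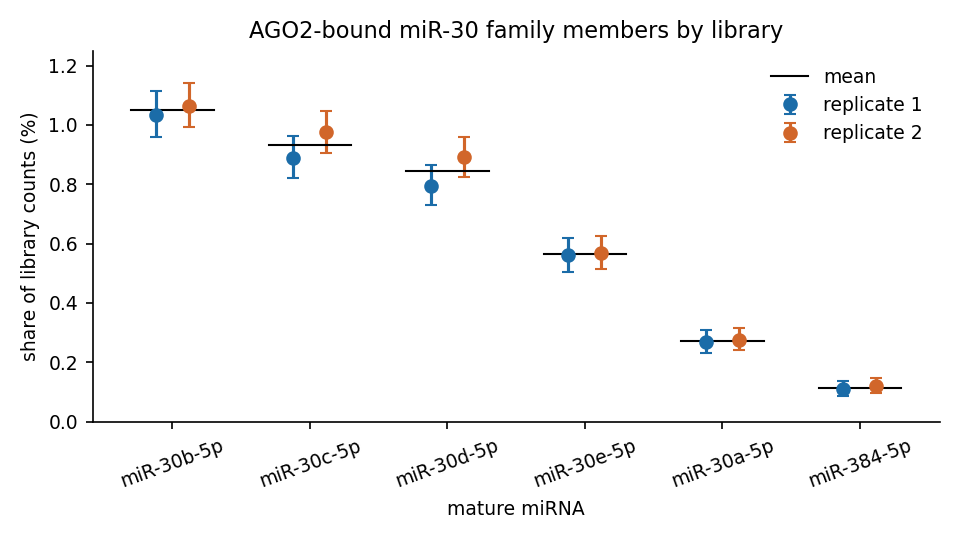
Share of library counts (%, vertical axis) of each miR-30 family member in the 2 AGO2-bound miRNA libraries, with points for libraries, error bars for exact 95% intervals of counting error and black lines for the mean. miR-30b-5p, miR-30c-5p and miR-30d-5p lie between 0.796% and 1.06%, and miR-384-5p lies at 0.109% and 0.120%.

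The order of the members held in both libraries, with 1 step unresolved across them. The lower of the miR-30c-5p shares, 0.890%, lay just under the higher of the miR-30d-5p shares, 0.891%, so the ranges of these neighbours overlapped. The ranges of all other neighbours were apart. For miR-30b-5p and miR-30c-5p the gap was small, with 1.04% as the lower share of miR-30b-5p and 0.975% as the higher share of miR-30c-5p, and their counting intervals overlapped within each library. The ratio of means was 1.49 for miR-30d-5p over miR-30e-5p, 2.08 for miR-30e-5p over miR-30a-5p and 2.37 for miR-30a-5p over miR-384-5p. In the list of all miRNAs, miR-30b-5p stood between let-7e-5p (1.09% ± 0.124) and miR-29b-3p (1.03% ± 0.174; SD, n = 2 each), and neither neighbour was separate from it beyond their spread. miR-384-5p stood between miR-127-5p (0.115% ± 0.0207) and miR-324-5p (0.112% ± 0.00879; SD, n = 2 each), again within the spread. These neighbours were chosen by mean share over the 2 libraries and by nothing else.

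Within the family, the split was nearly the same in both libraries. miR-30b-5p took 28.3% and 27.3% of the family's counts, miR-30c-5p 24.3% and 25.0%, and miR-30d-5p 21.7% and 22.9%. miR-30e-5p took 15.3% and 14.6%, miR-30a-5p 7.32% and 7.09%, and miR-384-5p 2.98% and 3.09%. The SD of each member's split over the libraries was at most 0.793 percentage points. If miR-30a-5p and miR-30e-5p were read as 1 sequence, a choice made with the data in view, they would hold 22.2% ± 0.683 (SD, n = 2), level with miR-30d-5p at 22.3% ± 0.793.

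Grouped by locus, the chromosome 15 pair miR-30b-5p and miR-30d-5p held 50.1% ± 0.103 of the family's counts (SD, n = 2). The loci on chromosomes 1 and 4, summed over miR-30a-5p, miR-30c-5p and miR-30e-5p, held 46.9% ± 0.176 (SD, n = 2). Neighbours at a locus were not counted equally. miR-30b-5p had 1.30 times the counts of miR-30d-5p in replicate 1 and 1.19 times in replicate 2. miR-30c-5p had 3.32 and 3.53 times the counts of miR-30a-5p, and 1.59 and 1.72 times those of miR-30e-5p, although its counts sum over both loci. Of the members with a sequence that differ only at base 13, miR-30e-5p had 2.09 and 2.06 times the counts of miR-30a-5p.

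The largest member of the miR-30 family held a smaller part of its family than in miR-29 and miR-26, and a larger part than in let-7. In miR-30 that part was 27.8% ± 0.690 (SD, n = 2). In the miR-29 family of 3 the largest, miR-29a-3p, held 45.6% ± 0.238, and in the miR-26 family of 2 miR-26a-5p held 95.2% ± 0.331 (SD, n = 2 each). In the let-7 family of 9 members the largest, let-7c-5p, held 23.3% ± 0.224 (SD, n = 2). The families differ in size, which sets the lowest share that a largest member can have, so these values describe the families and were not tested against each other.

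**Figure D2:**
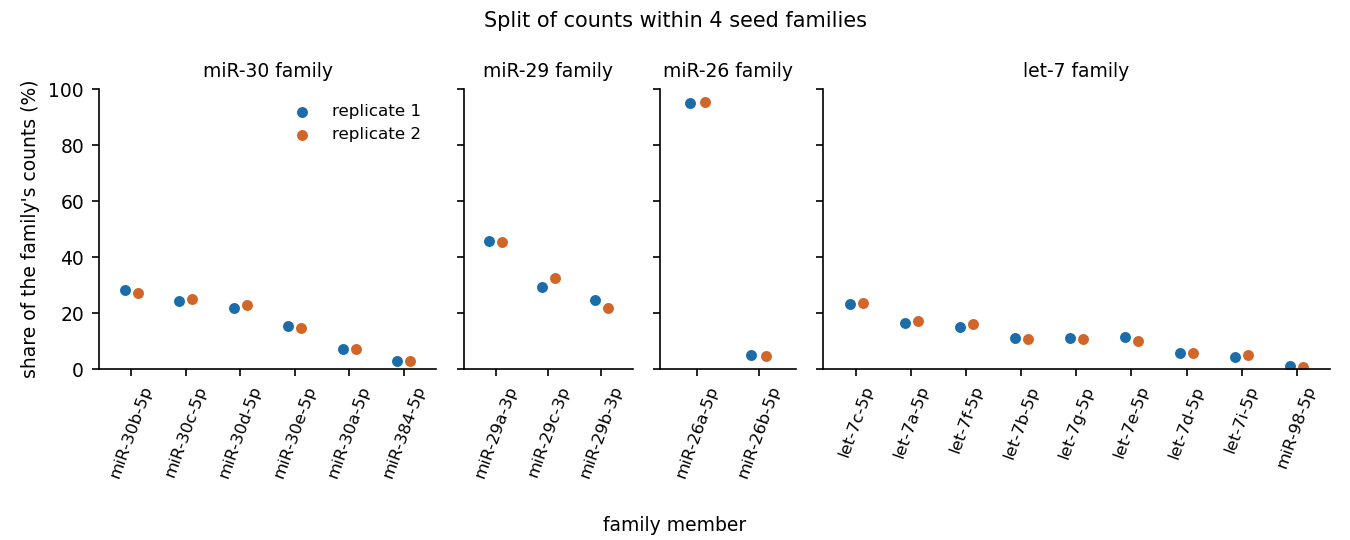
Share of each family's own counts (%, vertical axis) held by each member of the miR-30, miR-29, miR-26 and let-7 families, with 1 point per library. In miR-30 the members run from 28.3% to 2.98%, while miR-26a-5p alone holds over 90% of its family.

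The arm counts of the hairpins set miR-384 apart from the other members. The precursors of Mir384 and Mir30a are printed here to show where the arms lie, with both mature arms in capitals and the 5p arm first. Whether their letters relate to the arm counts was not tested.
Mir384: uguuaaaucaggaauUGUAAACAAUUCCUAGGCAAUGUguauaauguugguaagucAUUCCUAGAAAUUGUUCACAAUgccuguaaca
Mir30a: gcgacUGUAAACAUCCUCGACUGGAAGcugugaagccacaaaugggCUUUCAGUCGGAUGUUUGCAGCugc
The arms of Mir384 were counted about equally in the AGO2-bound RNA. There were 73 counts of miR-384-5p and 71 of miR-384-3p in replicate 1, and 91 and 89 in replicate 2. The 5p arm was thus 50.7% (exact 95% interval 42.2 to 59.1) and 50.6% (43.0 to 58.1) of both arms. miR-384-3p alone took 0.112% ± 0.00808 of the library counts (SD, n = 2), at position 119, next but 1 to its sister arm. Its own sequence, aUUCCUAGaaauuguucacaau with the seed in capitals, had a seed that none of the other entries in the table shared. The counts of the Mir384 hairpin thus carried 2 different seeds at about the same level. Whether the library steps recovered both arms equally well was not tested, and the intervals do not cover it.

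The hairpins of the other 5 members were counted almost only by their 5p arm. Summed, they had 2373 counts of the 5p and 41 of the 3p arms in replicate 1, and 2856 and 53 in replicate 2, so that the 5p arm made up 98.3% and 98.2%. miR-30e had the most 3p counts, 25 and 29, and a 5p share of 93.8% and 93.7%. miR-30a had 8 and 19 counts of its 3p arm and a 5p share of 95.7% and 91.7%. The least of these exact 95% intervals, 87.3 to 94.9 for miR-30a in replicate 2, lay well above those of miR-384. miR-30d-3p had 8 and 2 counts, miR-30b-3p 0 and 1, miR-30c-1-3p 0 and 2, and miR-30c-2-3p 0 in both. With so few 3p counts, the share of Mir30c-1 and Mir30c-2 in miR-30c-5p could not be resolved at this depth.

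Across all 170 hairpins whose arms carry matching names and together have at least 10 counts in each library, the lesser arm had a median of 2.47% of both arms' counts (quartiles 0% and 13.0%). In 13 of them, or 7.65%, the lesser arm reached 40%, a limit set after the values were seen. miR-384, at 49.4%, was the most even of the 170, ahead of miR-379 at 48.5%, a gap within the counting interval of miR-384. In 58 hairpins (34.1%) the 5p arm held over 90%, as it did in miR-30a, miR-30b, miR-30d and miR-30e.

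**Figure D3:**
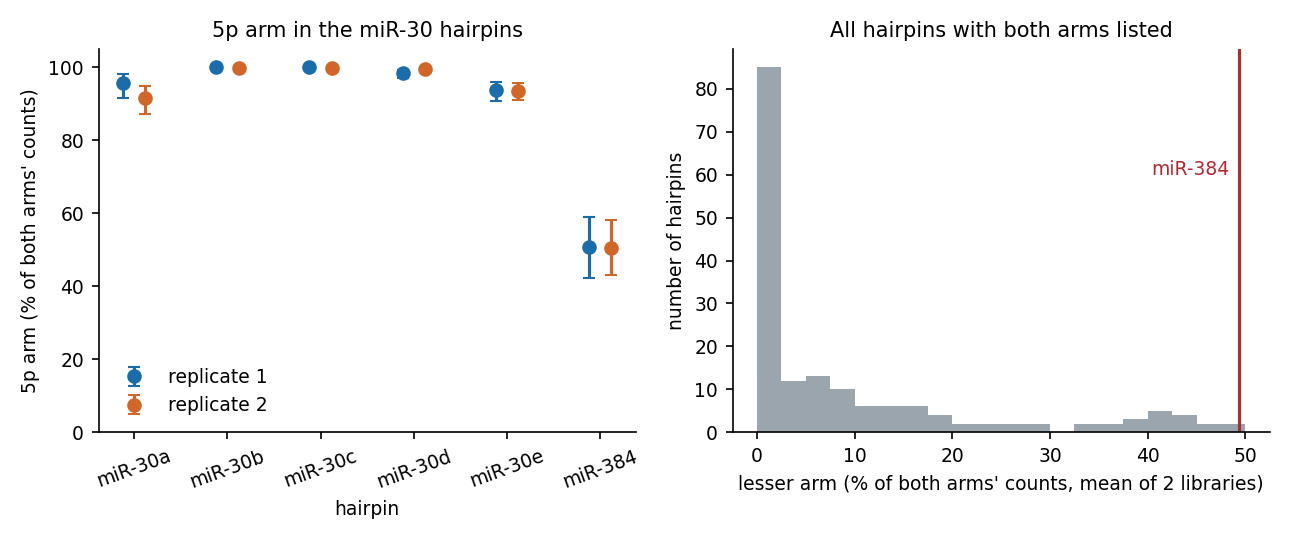
Left, 5p arm as a percentage of both arms' counts for the 6 hairpin names of the family in each library, with exact 95% intervals of counting error. Right, number of hairpins (of 170) by the percentage held by their lesser arm, with the red line at miR-384 (49.4%), far from the median of 2.47%.

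An entry named miR-30f is annotated on the opposite strand of the Mir30e hairpin, at bases 120772621 to 120772642 of the plus strand of chromosome 4. It had 1 count in each library. It holds the letters of the family's seed from base 1 rather than base 2, so it is not a family member by seed, and its counts lie under the limit that a count of 0 allows.

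The libraries were then set against each other to see whether any member differed between them by more than read counting noise. An exact two-sided binomial test of each miRNA with at least 10 counts, adjusted by Benjamini-Hochberg over all 310, called 4 miRNAs (1.29%) and none of the 6 members. At an unadjusted p under 0.05 the numbers were 46 of the 310 and 0 of the 6 members. The test compares libraries and not conditions, and it also treats the kept duplicates as independent reads. It was run on single miRNAs, so the pool of the 6 members, at 3.66% and 3.90%, was not tested between the libraries. The lowest member value was that of miR-30d-5p, with a log2 ratio of 0.16 for replicate 2 over replicate 1 (exact adjusted p = 0.342), followed by miR-30c-5p with 0.13 (exact adjusted p = 0.434).

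All 6 members had a slightly higher share in replicate 2, with log2 ratios from 0.02 to 0.16 and a median of 0.09. Over all 310 miRNAs, 53.5% were higher in replicate 2 and the median log2 ratio was 0.02. With edgeR's TMM scaling miR-30e-5p turned to -0.01 and 5 of 6 members were higher, and with DESeq2 size factors it came to -0.00091 and 5 of 6 were higher. The SD of the log2 ratio was 0.57 over all 310 miRNAs, many of them with few counts.

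**Figure D4:**
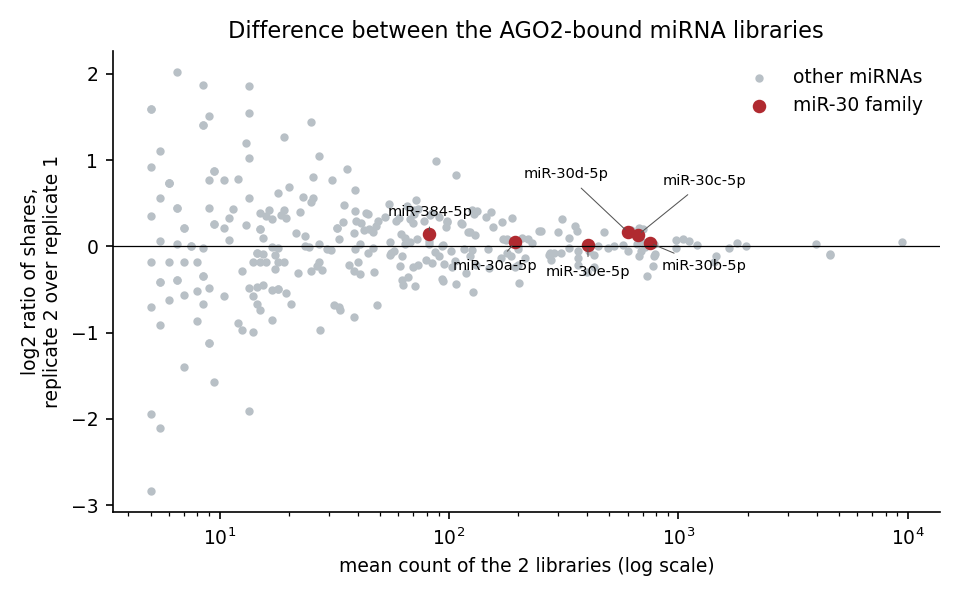
Log2 ratio of shares, replicate 2 over replicate 1 (vertical axis, with 0.5 added to each count), against the mean count of the 2 libraries (log scale) for 310 miRNAs in grey, with the miR-30 family in red. The 6 members lie between 0.02 and 0.16.

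The target peaks were read at genes that the miR-30 family is known for. A list of 26 genes reported as targets of miR-30 or miR-384-5p in various tissues was drawn from general knowledge, and peaks were credited to a gene whose span held their midpoint. At least 1 peak lay in 5 of the 26 genes (19.2%), against 942 of 21887 protein-coding genes (4.3%), and at least 2 peaks lay in 3 of the 26, against 1.37%. The list was drawn up with earlier results of these data known, and neither the level nor the length of its genes was matched, so the shares are a description. The median number of peaks per gene was 0 both in the list and over all protein-coding genes.

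The genes of calcineurin held 15 of the 17 peaks of the list. Calcineurin is the phosphatase that is switched on by calcium and calmodulin and acts in synaptic depression, and the miR-30 family has been reported to repress its subunits in podocytes of the kidney. Ppp3ca, the gene of the main catalytic subunit in brain (chromosome 3, 136669714 to 136937727), had 6 peaks. They were 39 to 226 bases wide, covered 830 bases and lay 0.901 to 2.52 kb from the end of the span, read along the strand of the peaks and measured to the nearer edge of each. Ppp3r1, the gene of the regulatory subunit (chromosome 11, 17159298 to 17200380), had 6 peaks as well, 40 to 83 bases wide, covering 361 bases and lying 0.180 to 1.72 kb from the end. Ppp3cb, the gene of the second catalytic subunit (chromosome 14, 20499364 to 20546573), had 3 peaks, of which 2 lay 1.19 and 1.71 kb from the end and 1 lay 32.3 kb from it.

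All 15 calcineurin peaks thus fell on 1 strand per gene, and 14 had their nearer edge in the last 2.52 kb of their spans. None lay in the span of another gene of the table. Over all protein-coding genes, 0.617% had at least 3 peaks and 0.206% (45 genes) at least 6, and Ppp3ca and Ppp3r1 were among the 45. The spans of Ppp3ca (268 kb), Ppp3cb (47.2 kb) and Ppp3r1 (41.1 kb) were all above the median of 17.2 kb of all protein-coding genes, whose shares with peaks are given here, while the median of genes with a peak was 60.6 kb. The other subunit genes Ppp3cc and Ppp3r2, looked up after these values were seen, had 0 peaks each.

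Other list genes with a peak were Ccn2, a matricellular growth factor gene (chromosome 10, 24595442 to 24598683), with 1 peak 0.433 kb from its end, and Hspa5, the gene of an endoplasmic reticulum chaperone (chromosome 2, 34772090 to 34776529), with 1 peak 0.355 kb from its end that also lies in the span of Rabepk. The remaining 21 genes had 0 peaks, among them the autophagy gene Becn1, the neurotrophin gene Bdnf, the kinase genes Pik3cd and Camk2d, the axon guidance gene Sema3a and Tnrc6a, which encodes a partner of AGO2. Genome sequence was not used here and no peak was searched for the letters of the seed site, so none of these peaks is assigned to a miR-30 miRNA, and a peak can stem from any miRNA that AGO2 held. The sources used here do not state if the input entered the peak calling.

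**Figure D5:**
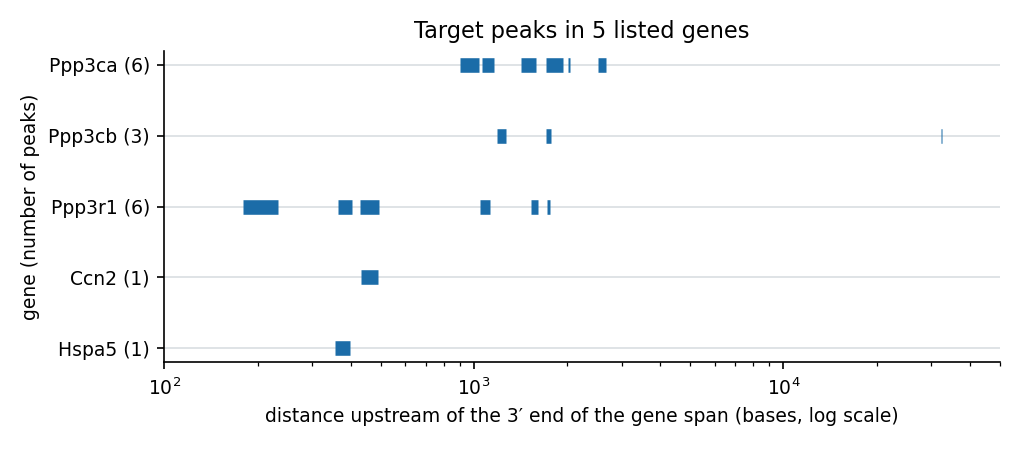
Peaks (bars, drawn at their width) in the 5 list genes that hold any, by distance upstream of the 3′ end of the gene span along the strand of the peak (bases, log scale). All but 1 of the 17 peaks have their nearer edge within 2.52 kb of the end, and the exception is in Ppp3cb at 32.3 kb.

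At the miR-30 genes themselves there were no peaks. Mir30a, Mir30b, Mir30c-1, Mir30c-2, Mir30d, Mir30e and Mir384 had 0 peaks inside and 0 within 10 kb, and the host gene Nfyc had 0 in its whole span. Only 4.3% of all protein-coding genes had a peak, so a 0 at Nfyc is the common case. The share over all miRNA genes was not computed, so these zeros do not set the miR-30 genes apart. The nearest peak to any of them lay 11.9 kb from Mir30b, on the minus strand of chromosome 15 (68325538 to 68325563).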

How the data were processed

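AGO2-bound RNA from P14 cortex was cut from a gel between 70 and 150 kDa and read as 100 bp single ends, per the labels' protocols. The miRNA values are counts per mature miRNA as the authors deposited them, not normalized, in 2 libraries. The name given to them says that duplicates were kept. The peak score in the authors' deposited list is 0 for every peak, so only positions and strands were used. The submitters' processing notes list mm10 and, without roles, the tools STAR 2.5.2a, cutadapt 2.10, deepTools 3.1.3, Bowtie2 2.4.2, UMI-tools and DESeq2 1.36.0. A row for unassigned reads held 0 counts and was left out.

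Shares are counts over library totals, with mean and SD (n = 2) and Clopper-Pearson 95% intervals from scipy 1.17.1. Log2 ratios used 0.5 added to each count. The binomial test, with a threshold of 0.05, was tested on simulated data. TMM factors came from edgeR 4.0.16 and size factors from DESeq2 1.42.0. Gene spans and sequences came from RefSeq tables on GRCm38.p6, and peaks in small RNA genes were not credited to hosts. The members, the comparison families, the target list and the markers were chosen with earlier results of these data known. The text names the members, their 3p arms, rank neighbours of the highest and lowest member, 3 comparison families, loci and listed genes with a peak. Names beyond these were picked with values in view. Alternatives comprised other denominators and scalings, each library left out, the family without miR-384-5p or with 3p arms, summed counts, no count minimum and other rules for peaks.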

Additional observations from a re-analysis of the deposited data

How the results depend on the processing

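The share of the family in the counts, 3.78% as reported, became 4.35% with miR-128-3p left out of the denominator, by construction, and 3.95% with the 3p arms added. It was 3.66% without replicate 2 and 3.90% without replicate 1. With miR-128-3p left out, each member's share grew by 15.3% of its reported value, again by construction. Under edgeR's TMM and DESeq2 size factors the lowest ratio of a member's mean share to the reported one was 0.9995. Both scalings move the 2 libraries in opposite directions by construction. A mean over both could therefore hardly change, and this ratio is no check of the shares. The largest member's part of the family was 28.7% without miR-384-5p, against 27.8%. The number of miRNAs called between the libraries was 4 of 310, with 11 of 310 under TMM scaling and 7 of 310 under DESeq2 size factors. With no count minimum it was 3 of 554. Under each setting 0 of the 6 members were called, and their lowest adjusted p in the binomial test ranged from 0.342 to 0.522. At an unadjusted p under 0.05 there were 46, 41, 43 and 54 miRNAs in that order, and 0 members. So few miRNAs were called in all that 0 of 6 does not set the members apart. The cause of the change with scaling was not tested. Of the 26 list genes, 3 had at least 2 peaks, all of calcineurin, and 5 had a peak wholly inside the span. No paired analysis was possible because the replicate numbers join groups of which only the miRNA libraries were used with values. The planned search for seed sites in peaks was not run, since no genome sequence was used here. Depth limits the 3p arms of the miR-30a to miR-30e hairpins, each of which had at most 29 counts in a library.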
